A study of Mus musculus with 18 samples.

Results

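The genes of the vascular endothelial growth factor (VEGF) system followed here are the ligands Vegfa, Vegfb, Vegfc and Pgf, the receptors Flt1 and Kdr, and the neuropilins Nrp1 and Nrp2. They were chosen by name: every probe set whose single gene symbol was one of these 8 was taken, which gave 20 of the 45101 probe sets of the array and 8 of its 18194 genes. Vegfc had 3 probe sets, Vegfa 2, Flt1, Nrp1 and Nrp2 had 4 each, and Vegfb, Pgf and Kdr had 1 each. Each gene is led by its brightest probe set by the mean over the 18 arrays, and all 8 passed the filter on dim genes.

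The cells were primary mouse embryonic fibroblasts grown from 14-day embryos without head and liver. They came from 3 embryos labelled NFI-C knock out, which lack the transcription factor nuclear factor I-C as labelled, and from 3 wild-type embryos. Cells of each embryo stood for some hours in serum-free medium with albumin, insulin, transferrin and selenium, and were then left untreated or given 12.5 ng/ml of TGF-β1 for 1 h or 10 h. The 6 groups are thus the knock-out and the wild-type cultures, each untreated, at 1 h and at 10 h, with 3 embryos per group and the same embryos in all 3 conditions of a genotype. The labels name neither the allele of the knock-out nor the time at which untreated cells were harvested. Against untreated cells, TGF-β1 and time in this medium therefore cannot be told apart at 1 h or at 10 h.

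VEGF ligands are secreted proteins that bind receptor tyrosine kinases, chiefly on endothelial cells, and drive the growth of blood and lymph vessels. Flt1 (VEGF receptor 1) binds VEGF-A, VEGF-B and placental growth factor tightly with weak kinase activity, and its soluble splice form traps ligand, whereas Kdr (VEGF receptor 2) carries most of the signal in endothelium. Neuropilins are co-receptors that also bind class 3 semaphorins, and fibroblasts are known as a source of the ligands in connective tissue.

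Values are log2 expression as deposited. They ran from 2.49 to 14.47 over all arrays, with the 40th percentile of an array between 4.16 and 4.25, and arrays of a group correlated at 0.987 to 0.995. Nfic itself read 9.89 to 10.72 on the knock-out arrays and 10.19 to 10.77 on the wild-type arrays, so these probes do not show the knock-out. Where they lie relative to the deleted part of the gene is not given in the labels. All 12 fibroblast markers lay above the 40th percentile on every array. So did all 12 macrophage markers, among them Csf1r and C1qb, whose list mean ran from 7.57 to 9.48 over knock-out arrays and from 7.99 to 10.11 over wild-type arrays. The mean of 14 endothelial markers lay between 4.41 and 4.70 on every array, and Pecam1, Tek, Tie1, Vwf and Robo4 were above the 40th percentile on 0 arrays. Eng, Egfl7 and Esam of the same list lay above it on 18 arrays, Erg on 17, Cd34 on 15, Emcn on 12, Sox17 on 11, Cldn5 on 9 and Cdh5 on 2. In RNA of whole cultures, fewer cells of a type and less RNA per cell cannot be told apart.

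TGF-β1 is known to act on transcription through SMAD proteins, so the proximal promoters were searched for short motifs. Those of the genes with the largest rise and of 1 that fell are shown, a choice that followed the results. The part of SMAD proteins in these changes was not tested. All 8 genes matched the RefSeq promoter table (build GRCm38.p6), with 10 windows of 250 bases before a transcription start. Each line gives 1 window, 5′ to 3′ on the strand of the gene, and capitals mark matches on either strand to 5 short motifs, where neighbouring or overlapping matches run together. The motifs were the SMAD box CAGAC, the hypoxia response core ACGTG, the AP-1 site TGANTCA, the GC box GGGCGG and the short NFI site TTGGC.
Vegfa, upstream start (chr17:46032378-46032627, minus strand): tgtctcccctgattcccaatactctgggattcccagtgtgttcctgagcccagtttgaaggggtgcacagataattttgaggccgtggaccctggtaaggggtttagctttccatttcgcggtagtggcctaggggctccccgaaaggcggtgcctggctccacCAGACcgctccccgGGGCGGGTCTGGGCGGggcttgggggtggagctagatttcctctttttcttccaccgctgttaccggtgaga
Vegfa, downstream start (chr17:46025164-46025413, minus strand): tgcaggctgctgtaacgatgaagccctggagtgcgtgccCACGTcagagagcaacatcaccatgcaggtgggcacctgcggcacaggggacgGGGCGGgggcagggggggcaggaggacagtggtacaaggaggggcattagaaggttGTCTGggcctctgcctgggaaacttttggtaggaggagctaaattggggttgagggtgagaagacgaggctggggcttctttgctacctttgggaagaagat
Flt1 (chr5:147726012-147726261, minus strand): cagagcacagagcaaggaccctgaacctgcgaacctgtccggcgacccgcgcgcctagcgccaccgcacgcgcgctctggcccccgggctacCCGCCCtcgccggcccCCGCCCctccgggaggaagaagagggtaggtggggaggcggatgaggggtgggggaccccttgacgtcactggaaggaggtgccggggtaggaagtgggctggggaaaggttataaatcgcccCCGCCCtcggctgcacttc
Nrp1 (chr8:128358823-128359072, plus strand): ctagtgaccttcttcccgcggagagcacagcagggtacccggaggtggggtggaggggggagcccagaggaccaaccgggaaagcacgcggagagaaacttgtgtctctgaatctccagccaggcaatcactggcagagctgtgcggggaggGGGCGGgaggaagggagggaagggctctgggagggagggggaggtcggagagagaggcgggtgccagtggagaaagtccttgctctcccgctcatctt

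The upstream Vegfa window held 2 SMAD boxes on opposite strands, 82 to 86 and 62 to 66 bases before the start, the nearer one set between 2 GC boxes and sharing 1 base with the second. Its downstream window held 1 SMAD box and the 1 hypoxia response core found in the 10 windows. That window lies downstream of the other Vegfa start on the same strand. The letters around its hypoxia response core read as codons of the VEGF-A protein, so this match lies in coding sequence. Whether the window also acts as a promoter was not tested. Flt1 held 3 GC boxes and Nrp1 held 1, with no match to the other 4 motifs in either. Of the 10 windows, only those of Pgf, which are not shown, held the short NFI site. There were 2 matches in the upstream Pgf window and 1 in the downstream one, which also held 1 SMAD box. Whether these sites act on Pgf was not tested. Such matches are common: of 32851 promoter windows of this length, 42.2% held a SMAD box, 16.6% a hypoxia response core, 6.75% an AP-1 site, 32.7% a GC box and 41.5% a short NFI site. A match describes letters only, and binding was not measured.

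At 10 h of TGF-β1 the system moved in both directions. Among ligands Vegfa rose about 5.8-fold in both genotypes, Vegfc and Pgf rose by less and Vegfb fell, while among receptors Flt1 rose 4.00-fold in knock-out and 3.22-fold in wild-type cells and Kdr passed the test in neither. Nrp1 fell in both genotypes and Nrp2 fell in wild-type cells by its brightest probe set. In all, 6 of the 8 genes passed in knock-out cells, 4 higher and 2 lower, and 7 passed in wild-type cells, 4 higher and 3 lower (limma, Benjamini-Hochberg adjusted p below 0.05). Of all 13679 genes tested, 34.7% passed in knock-out and 33.7% in wild-type cells. The share of all genes that rose was 13.9% and 14.9% in knock-out and wild-type cells, and the share that fell was 20.7% and 18.8%. Treated and untreated values did not overlap for 6 of 8 genes in knock-out and 8 of 8 in wild-type cells, nor for 45.1% and 44.3% of all genes. The median change of the 8 genes was 0.25 in knock-out and 0.45 in wild-type cells, beside -0.03 and 0.01 over all genes.

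**Figure D1:**
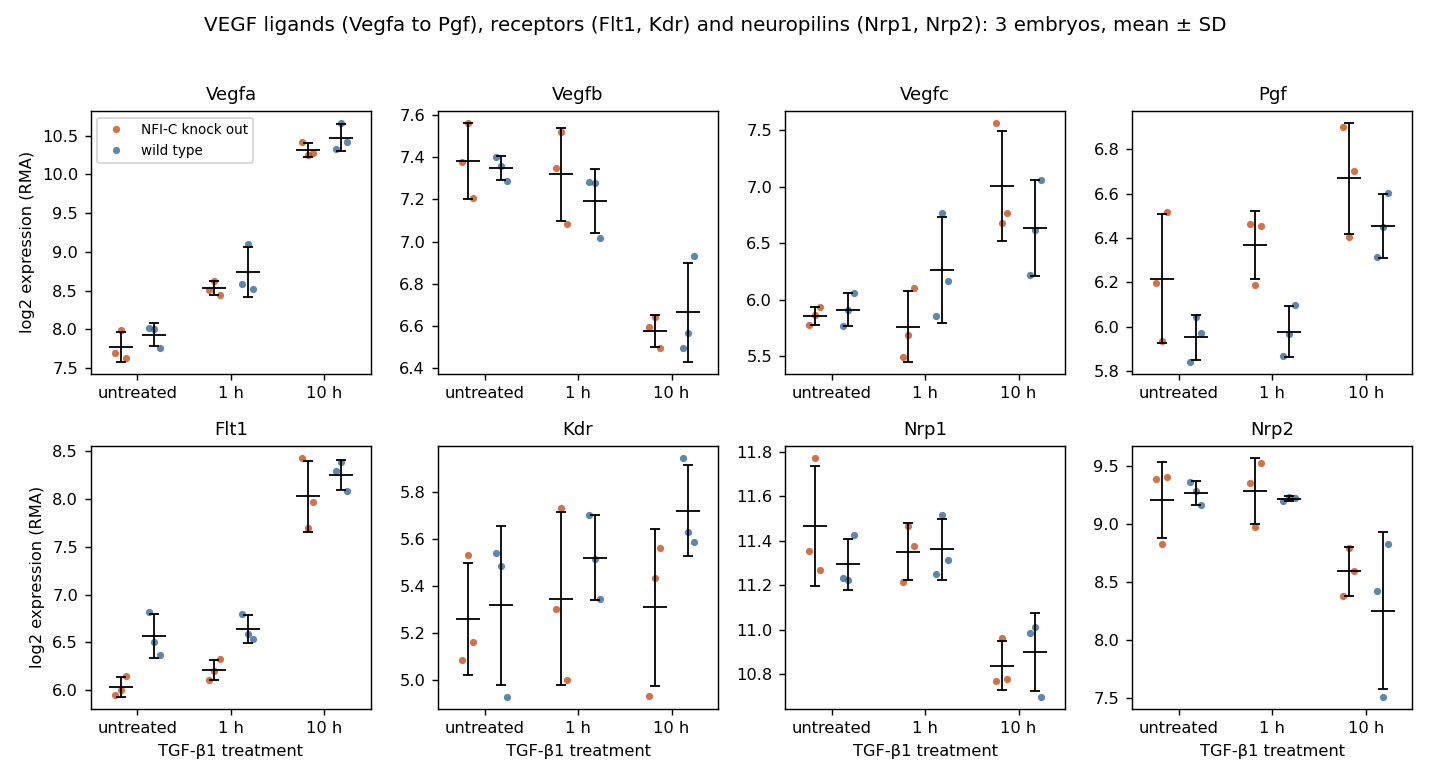
Log2 expression (y axis) of the brightest probe set of each of the 8 genes in untreated cells and at 1 h and 10 h of TGF-β1 (x axis), with NFI-C knock-out embryos in orange and wild-type embryos in blue; points are embryos and black bars the mean ± SD (n = 3). Vegfa stands near 8 in untreated cells and above 10 in every array at 10 h, Flt1 rises at 10 h only, and Vegfb, Nrp1 and Nrp2 are lower at 10 h; each panel has its own axis, which does not start at 0.

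Vegfa, the main angiogenic ligand, read 7.70, 7.99 and 7.63 in untreated knock-out embryos 1, 2 and 3, then 8.51, 8.62 and 8.45 at 1 h and 10.42, 10.26 and 10.28 at 10 h. Wild-type embryos, listed in the same order as all triplets below, read 8.02, 8.01 and 7.76 untreated, 8.59, 9.11 and 8.52 at 1 h and 10.33, 10.67 and 10.43 at 10 h. The 3 conditions did not overlap in either genotype, and every embryo went up at both steps. From lowest to highest the group means ran through both untreated groups, both 1 h groups and both 10 h groups, and within each of these pairs the genotypes overlapped. The 10 h change was 2.54 ± 0.15 (SE, n = 3 and 3) on the log2 scale in both knock-out and wild-type cells (limma adjusted p 6.96e-09 and 7.71e-09).

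Its second probe set rose by 3.16 ± 0.40 in knock-out and 3.10 ± 0.40 in wild-type cells at 10 h (limma adjusted p 4.15e-05 and 5.44e-05). It spread far more among untreated embryos, with 7.44, 7.73 and 6.19 in knock-out and 6.70, 7.75 and 7.37 in wild-type cells. At 10 h all 6 of its values lay between 9.93 and 10.76, so the lowest treated embryo stood well above the highest untreated one.

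Vegfa was also the one member whose brightest probe set passed at 1 h. It was 1.69-fold higher in knock-out and 1.75-fold higher in wild-type cells, with changes of 0.76 ± 0.15 and 0.81 ± 0.15 (limma adjusted p 0.0249 and 0.0116). Of all genes 0.49% passed at 1 h in knock-out and 0.585% in wild-type cells, and the 1 h and untreated values did not overlap for 1 and 2 of the 8 genes, beside 8.42% and 15.5% of all genes. Its second probe set changed by 0.59 ± 0.40 and 0.42 ± 0.40 at 1 h and did not pass. The early call also ended without any 1 of the 3 embryos of the same genotype (adjusted p 0.171 to 0.431 in knock-out and 0.0629 to 0.0976 in wild-type cells) and, in knock-out cells, without wild-type embryo 1 (0.0576). It ended as well with the mean of both probe sets (adjusted p 0.765 and 0.595) and with only the compared groups fitted (0.0792 and 0.188), although the embryos rose in 6 of 6 cases, by 0.57 to 1.10.

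Vegfb, a ligand of Flt1 linked to lipid uptake and cell survival more than to vessel growth, went the other way. It read 7.38, 7.56 and 7.21 in untreated knock-out cells, then 7.35, 7.52 and 7.08 at 1 h and 6.60, 6.64 and 6.49 at 10 h. In wild-type cells it read 7.40, 7.36 and 7.29 untreated, 7.28, 7.28 and 7.02 at 1 h and 6.50, 6.57 and 6.93 at 10 h. The 10 h values lay below all others in both genotypes, and the 3 embryos of each fell. The fall at 10 h was -0.80 ± 0.13 in knock-out and -0.68 ± 0.13 in wild-type cells, which is 1.75-fold and 1.61-fold lower than untreated (limma adjusted p 0.000229 and 0.000949).

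Vegfc, the ligand known for the growth of lymph vessels, rose 2.21-fold in knock-out and 1.65-fold in wild-type cells at 10 h. Knock-out embryos read 5.78, 5.86 and 5.94 untreated, 5.49, 5.69 and 6.10 at 1 h and 7.56, 6.68 and 6.77 at 10 h, and wild-type embryos 5.76, 5.91 and 6.06, then 5.85, 6.77 and 6.16, then 6.22, 6.62 and 7.06. Treated and untreated cells did not overlap at 10 h in either genotype, but wild-type cells at 1 h and 10 h did. The change was 1.14 ± 0.26 in knock-out and 0.72 ± 0.26 in wild-type cells (limma adjusted p 0.00295 and 0.0443). Its other 2 probe sets rose by 1.44 and 1.22 in knock-out cells, and in wild-type cells 1 rose by 0.99 (adjusted p 0.0229) and the other changed by 0.65 (adjusted p 0.0817). The knock-out call was lost without knock-out embryo 1, which carried the highest value (0.82, adjusted p 0.0510). The wild-type call was lost under 6 of 15 alternatives, among them leaving out wild-type embryo 2 (0.73, adjusted p 0.109) or 3 (0.58, adjusted p 0.208) or knock-out embryo 2 (adjusted p 0.0622) or 3 (0.0567).

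Pgf, placental growth factor, a ligand of Flt1 but not of Kdr, rose least of the ligands that rose. It read 6.20, 5.93 and 6.52 in untreated knock-out cells, then 6.46, 6.19 and 6.45 at 1 h and 6.90, 6.41 and 6.70 at 10 h. Wild-type cells read 5.84, 6.04 and 5.97 untreated, 5.87, 5.97 and 6.10 at 1 h and 6.31, 6.45 and 6.60 at 10 h. Treated and untreated values overlapped in knock-out cells, where embryo 3 was already high before treatment, and not in wild-type cells. The change at 10 h was 0.45 ± 0.15 in knock-out and 0.50 ± 0.15 in wild-type cells (limma adjusted p 0.0254 and 0.0152), upward in 6 of 6 embryos. The call in knock-out cells was lost without knock-out embryo 1 (0.33, adjusted p 0.228) and with only the compared groups fitted (0.105), and that in wild-type cells without any 1 wild-type embryo (0.0580 to 0.115).

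Flt1 was the receptor that moved, and it moved late. Knock-out embryos read 5.95, 6.00 and 6.15 untreated, 6.11, 6.20 and 6.32 at 1 h and 8.43, 7.69 and 7.97 at 10 h. Wild-type embryos read 6.82, 6.50 and 6.37 untreated, 6.80, 6.58 and 6.53 at 1 h and 8.29, 8.38 and 8.08 at 10 h. Every 10 h array lay above every untreated and 1 h array. The 10 h change was 2.00 ± 0.16 in knock-out and 1.69 ± 0.16 in wild-type cells (limma adjusted p 2.27e-07 and 1.35e-06). At 1 h it was 0.18 ± 0.16 and 0.08 ± 0.16, which did not pass.

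**Figure D2:**
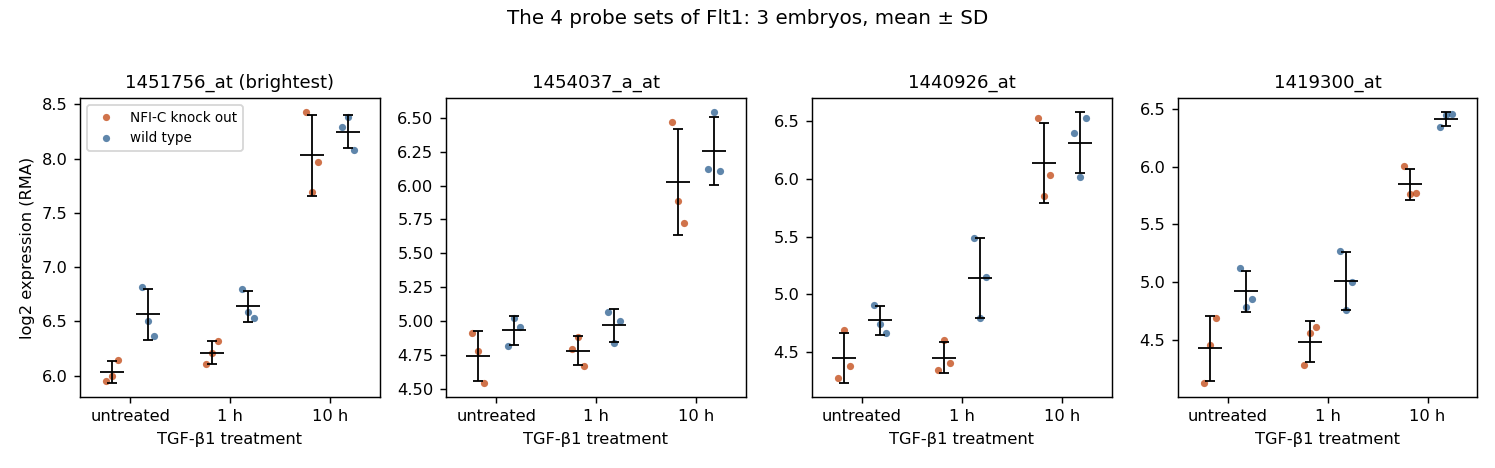
Log2 expression (y axis) of the 4 probe sets of Flt1 by TGF-β1 treatment (x axis), knock-out embryos in orange and wild-type embryos in blue, with the mean ± SD in black (n = 3). All 4 are higher at 10 h in both genotypes. Probe set 1419300_at is lower in every knock-out embryo than in every wild-type embryo within each condition, whereas the others overlap between genotypes at 10 h. The axes differ between panels and do not start at 0.

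The other 3 Flt1 probe sets rose as well at 10 h, by 1.28, 1.69 and 1.42 in knock-out cells and by 1.32, 1.54 and 1.49 in wild-type cells, and each passed in both genotypes (limma adjusted p 9.19e-06 to 5.54e-05 in knock-out and 5.68e-06 to 4.64e-05 in wild-type cells). Which of them lie in the part of the transcript that the soluble form lacks is not given in the files' annotation. The rise of a gene best known from endothelium came beside an endothelial list of which 0 of 8 tested members passed at 10 h in either genotype. Macrophages also express Flt1, and of the 12 macrophage markers 0 passed at 10 h, with median changes of -0.12 in knock-out and -0.14 in wild-type cells. The mean of the 14 endothelial markers lay between 4.55 and 4.59 in treated and 4.51 and 4.54 in untreated knock-out cells, without overlap. In wild-type cells it lay between 4.55 and 4.70 in treated and 4.45 and 4.59 in untreated cells, with overlap. Other marker lists moved at 10 h without overlap of the arrays in both genotypes. The mean of 9 mural cell markers lay between 8.48 and 8.73 in treated and 8.04 and 8.45 in untreated knock-out cells, and between 8.39 and 8.63 in treated and 7.997 and 8.11 in untreated wild-type cells, with 3 members higher and 2 lower in knock-out and 3 higher in wild-type cells. That of 7 neural and epithelial markers lay between 6.17 and 6.46 in treated and 5.72 and 5.83 in untreated knock-out cells, and between 6.24 and 6.31 in treated and 5.55 and 5.82 in untreated wild-type cells, with 2 of 6 tested members higher in each. The fibroblast mean was lower, 11.19 to 11.41 in treated and 11.49 to 11.81 in untreated knock-out cells and 11.33 to 11.44 in treated and 11.78 to 12.04 in untreated wild-type cells. Of its 12 members 2 were lower in knock-out and 3 in wild-type cells, with median changes of -0.04 and -0.21. Beside these list counts, 13.9% of all genes were higher and 20.7% lower in knock-out cells, and 14.9% and 18.8% in wild-type cells. The part of these lists in the rise of Flt1 was not tested.

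Kdr, the main signalling receptor of endothelium, ran between 4.93 and 5.94 over the 18 arrays, whose medians over all probe sets were 4.74 to 4.81. It read 5.09, 5.53 and 5.16 in untreated knock-out cells, then 5.30, 5.73 and 5.00 at 1 h and 4.93, 5.44 and 5.56 at 10 h, and 5.54, 5.48 and 4.93 in untreated wild-type cells, then 5.70, 5.51 and 5.34 at 1 h and 5.94, 5.63 and 5.59 at 10 h. Neighbouring groups overlapped at every step of the order of its 6 means. Even so, the 10 h values of wild-type cells all lay above the untreated ones, 5.59 at the lowest against 5.54 at the highest. In knock-out cells the 10 h and untreated values overlapped. The 10 h change was 0.05 ± 0.21 in knock-out cells, with a 95% interval of -0.40 to 0.50, and 0.40 ± 0.21 in wild-type cells, with an interval of -0.05 to 0.85 (limma adjusted p 0.889 and 0.156). With embryo as a replicate block the wild-type change passed (adjusted p 0.0496). This block takes the embryo numbers of the labels as pairs, although deviations of the untreated and 10 h wild-type arrays correlated at 0.487 for embryo 1 but at -0.06 and -0.20 for embryos 2 and 3. All 3 wild-type embryos went up, by 0.15 to 0.66, while 1 of 3 knock-out embryos did.

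Nrp1, the co-receptor that binds VEGF-A and semaphorin 3A, fell at 10 h. Knock-out embryos read 11.35, 11.77 and 11.27 untreated, 11.21, 11.46 and 11.38 at 1 h and 10.77, 10.97 and 10.78 at 10 h, and wild-type embryos 11.23, 11.23 and 11.43, then 11.25, 11.52 and 11.32, then 10.98, 11.01 and 10.70. The 10 h values lay below the others in both genotypes. The change was -0.63 ± 0.13 in knock-out and -0.39 ± 0.13 in wild-type cells, 1.54-fold and 1.31-fold lower (limma adjusted p 0.00163 and 0.0299). The other 3 probe sets fell and passed in both genotypes, by -0.50, -0.79 and -0.85 in knock-out and by -0.50, -1.05 and -0.81 in wild-type cells. For the brightest probe set the wild-type call was lost without wild-type embryo 3 (-0.23, adjusted p 0.323) or 1 (adjusted p 0.0629), with only the compared groups fitted (0.0570) and with all probe sets fitted (0.0512).

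One Nrp1 probe set, 1457198_at, differed from the rest in time. It read 8.30, 7.98 and 8.81 in untreated knock-out cells, then 7.32, 7.44 and 7.53 at 1 h and 7.17, 7.93 and 7.43 at 10 h. In wild-type cells it read 8.59, 7.99 and 8.54 untreated, 7.44, 6.79 and 7.04 at 1 h and 7.62, 7.59 and 7.47 at 10 h. The 1 h values lay below the untreated ones in both genotypes. The 1 h change was -0.93 ± 0.23 in knock-out cells, which did not pass, and -1.28 ± 0.23 in wild-type cells, which did (limma adjusted p 0.216 and 0.0190), whereas the other 3 probe sets of Nrp1 changed by -0.12 to 0.07 at 1 h and did not pass. It was the second of 2 member probe sets to pass at 1 h in wild-type cells, beside 1 of 20 in knock-out cells. Over the whole array, dim probe sets included, 0.297% passed in wild-type and 0.242% in knock-out cells. Leaving out any 1 wild-type embryo left 0 of 20. What transcript this probe set reads is not given beyond its symbol.

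**Figure D3:**
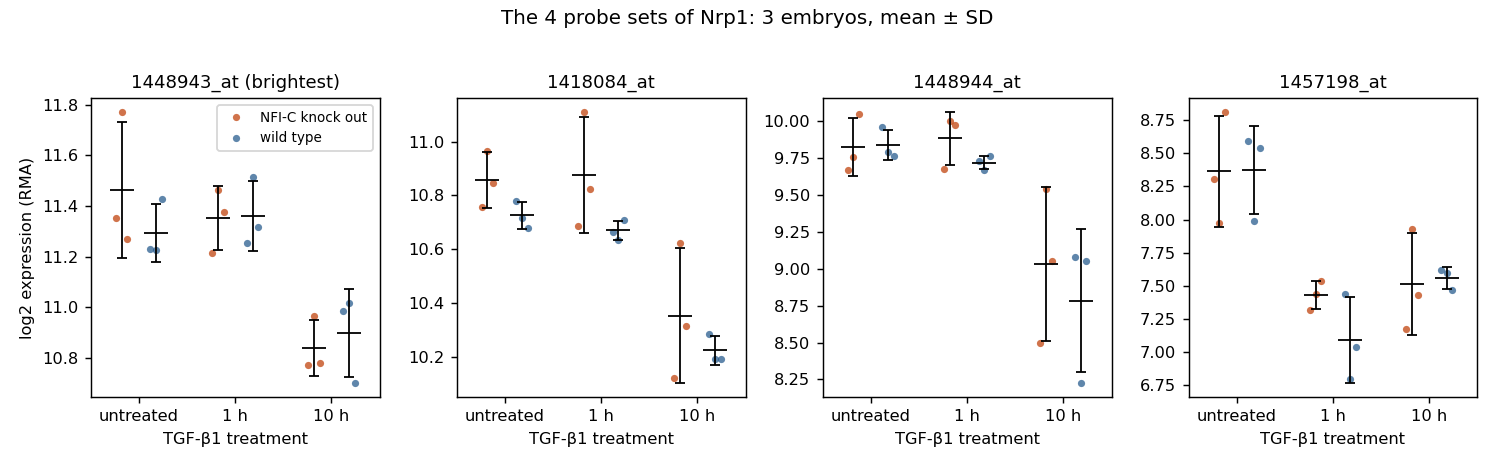
Log2 expression (y axis) of the 4 probe sets of Nrp1 by TGF-β1 treatment (x axis), knock-out embryos in orange and wild-type embryos in blue, with the mean ± SD in black (n = 3). In 3 panels the values drop at 10 h, whereas 1457198_at is already lower at 1 h; the axes differ between panels and do not start at 0.

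Nrp2, the co-receptor that binds VEGF-C and semaphorin 3F, was lower at 10 h with a wide spread. Knock-out embryos read 9.39, 8.83 and 9.41 untreated, 9.36, 8.98 and 9.53 at 1 h and 8.38, 8.80 and 8.60 at 10 h. Wild-type embryos read 9.36, 9.29 and 9.16 untreated, 9.20, 9.24 and 9.23 at 1 h and 8.43, 7.51 and 8.83 at 10 h. The 10 h values lay below the untreated ones in both genotypes, by 0.03 only for knock-out embryo 2. The change was -0.62 ± 0.25 in knock-out cells, which did not pass, and -1.02 ± 0.25 in wild-type cells, which did (limma adjusted p 0.0698 and 0.00539).

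The calls of Nrp2 changed when an embryo was left out. Without wild-type embryo 2 the wild-type change was -0.63 (adjusted p 0.0562), and the knock-out change passed without knock-out embryo 2 (-0.91, adjusted p 0.0329) or without wild-type embryo 2 (0.0196). It also passed with the mean of the 4 probe sets (-0.73, adjusted p 0.00610) and with only the compared groups fitted (0.0419), which makes 4 of 15 alternatives. Probe sets 1426528_at and 1456778_at of Nrp2 fell in both genotypes, by -0.85 and -1.04 in knock-out and by -0.90 and -1.06 in wild-type cells (limma adjusted p 0.0114 and 0.000199, then 0.0085 and 0.00019). The dimmest of the 4, near 5, changed by -0.40 in knock-out cells (adjusted p 0.281) and by -0.68 in wild-type cells (0.0498).

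**Figure D4:**
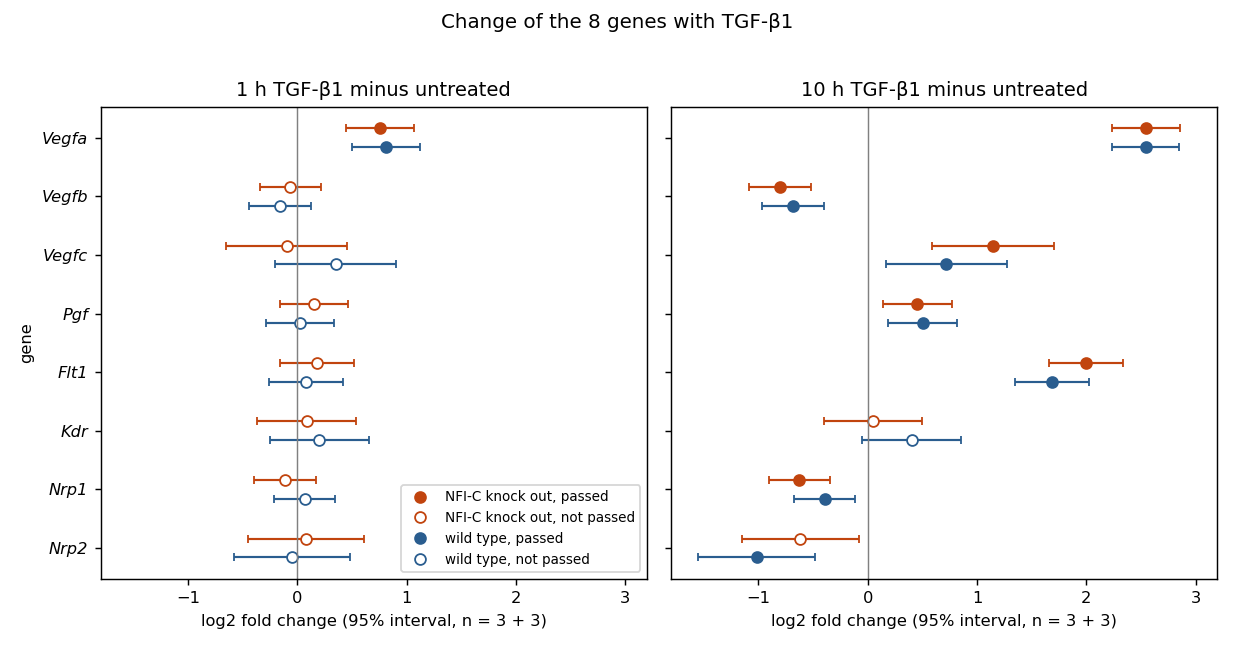
Log2 fold change (x axis) of the 8 genes (y axis) at 1 h (left) and 10 h (right) of TGF-β1 against untreated cells, with 95% intervals from limma (3 against 3 embryos), knock-out cells in orange above wild-type cells in blue; filled points passed at an adjusted p below 0.05. At 1 h only Vegfa is filled, and at 10 h Vegfa and Flt1 lie farthest to the right.

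Over all probe sets of the 8 genes, 17 of 20 passed at 10 h in knock-out cells, 10 higher and 7 lower, and 16 of 20 in wild-type cells, 8 higher and 8 lower. Over the whole array 15.9% and 16.1% of probe sets passed. These shares include dim probe sets, whereas each of the 20 lay above the 40th percentile on at least 17 arrays. Among genes that passed the filter on dim genes the shares were 34.7% and 33.7%. Probe sets of the same gene are not independent. Between 1 h and 10 h, 6 of 8 genes passed in each genotype, 3 higher and 3 lower, where 33.4% of all genes passed in knock-out cells, 13.7% higher and 19.7% lower, and 33.3% in wild-type cells, 15.3% higher and 18% lower. Vegfa rose further in that interval, by 1.79 ± 0.15 in knock-out and 1.73 ± 0.15 in wild-type cells, and Flt1 rose by 1.82 ± 0.16 and 1.61 ± 0.16. The 10 h, 1 h and untreated groups enter several of these comparisons, so the comparisons are not independent.

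None of the 8 genes passed the adjusted test between NFI-C knock-out and wild-type cells, in untreated cells, at 1 h, at 10 h or with the 3 arrays of an embryo averaged, where 0% of all genes passed with limma in each case. At an unadjusted p below 0.05 the count was 1 of 8 in untreated cells, 2 at 1 h, 0 at 10 h and 2 in the embryo means, against 3.36%, 6.18%, 5.27% and 4.82% of all genes. Flt1 had the smallest p of the members in untreated cells, at 1 h and in the embryo means, and Kdr had it at 10 h (p 0.0717). The Flt1 difference between knock-out and wild-type cells was -0.53 ± 0.16 untreated (p 0.00433), -0.43 ± 0.16 at 1 h (p 0.0168) and -0.22 ± 0.16 at 10 h (p 0.189), from the limma fit before adjustment. In the embryo means it was -0.39 ± 0.10 (adjusted p 0.711). All knock-out values lay below all wild-type values of Flt1 in untreated cells and at 1 h, and its dimmest probe set, 1419300_at, did so in all 3 conditions. The genotypes overlapped in all 3 conditions for probe set 1454037_a_at, with differences of -0.19, -0.19 and -0.23. For 1440926_at they overlapped in untreated and 10 h cells (-0.33 and -0.18) and not at 1 h (-0.69). Over all genes 7.93%, 14.3% and 7.60% did not overlap in untreated, 1 h and 10 h cells.

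The macrophage list was also lower in knock-out cells, with a median over its 12 genes of -0.58 in untreated cells and 0 of 12 passing. Its mean read 9.48, 7.80 and 8.14 in untreated knock-out embryos and 10.11, 8.65 and 8.49 in untreated wild-type embryos. Among wild-type embryos Flt1 and this mean had the same order in untreated cells and at 1 h, where the mean was 9.96, 8.58 and 8.38. At 10 h their orders differed, with a mean of 9.95, 7.99 and 8.57 and Flt1 at 8.29, 8.38 and 8.08. Among untreated knock-out embryos Flt1 was lowest in embryo 1, whose macrophage mean was the highest of the 3 and exceeded those of wild-type embryos 2 and 3. At 1 h Flt1 was again lowest in knock-out embryo 1, while the mean was 9.23, 7.79 and 8.08. At 10 h the knock-out embryos had the same order in both, with a mean of 9.33, 7.57 and 8.17 and Flt1 at 8.43, 7.69 and 7.97. The part of macrophages in the Flt1 difference was not tested.

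Pgf ran higher in knock-out cells, by 0.27 ± 0.15 untreated, 0.39 ± 0.15 at 1 h and 0.21 ± 0.15 at 10 h, and its groups did not overlap at 1 h (adjusted p 0.698). For Kdr at 10 h all 3 knock-out values lay below the wild-type ones, with a difference of -0.41 ± 0.21 (adjusted p 0.925). Vegfa, Vegfb, Vegfc, Nrp1 and Nrp2 overlapped between genotypes in all 3 conditions.

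The responses themselves were also compared. The knock-out minus wild-type difference in the 10 h response was 0.00 ± 0.21 for Vegfa, with a 95% interval of -0.44 to 0.44, and 0.31 ± 0.23 for Flt1, with an interval of -0.17 to 0.79. For Vegfc it was 0.42 ± 0.37 and for Nrp2 0.40 ± 0.36, the widest intervals of the 8. By limma 0 of 8 genes passed for the 10 h response and 0 for the 1 h response, 0 also at an unadjusted p below 0.05, where 2.23% and 1.70% of all genes lay. Thus a call in one genotype and not in the other, as for Nrp2, was not shown to be a difference between them by this test.

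Genes around the 8 members were counted by lists. For each count at 10 h below, the shares over all tested genes are 13.9% higher and 20.7% lower in knock-out cells. In wild-type cells these shares are 14.9% and 18.8%. Of the VEGF family outside the members, Vegfd, a lymphatic ligand, fell by -1.83 ± 0.23 in knock-out and -1.81 ± 0.23 in wild-type cells at 10 h (limma adjusted p 1.77e-05 and 2.11e-05), so it moved against Vegfc. Flt4, the receptor of both, changed by 0.18 and 0.48 and did not pass.

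Of the 12 tested class 3 semaphorins, plexins and the neuropilin adaptor, 1 rose and 4 fell at 10 h in each genotype. Sema3a, the neuropilin ligand that repels axons, fell by -1.34 ± 0.12 in knock-out and -1.47 ± 0.12 in wild-type cells, and Sema3c by -0.68 and -0.91. Of the plexins, which carry the semaphorin signal, Plxna2 fell by -0.99 and -1.16 and Plxna1 rose by 0.43 and 0.45. The median of the list was -0.25 in knock-out and -0.13 in wild-type cells.

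Vegfa is a classical target of hypoxia-inducible factors. In the list of these factors and their oxygen sensors 0 of 10 genes rose and 2 fell at 10 h in each genotype, beside the 20.7% and 18.8% of all genes that fell in knock-out and wild-type cells. The activity of these factors was not measured, and their part in the rise of Vegfa was not tested. Hif1a, the oxygen-regulated subunit, fell by -0.73 ± 0.12 in knock-out and -0.75 ± 0.12 in wild-type cells, and its partner Arnt2 by -1.20 ± 0.16 and -1.37 ± 0.16. Of 17 other hypoxia-inducible targets, 2 rose and 3 fell in knock-out cells and 3 rose and 3 fell in wild-type cells, with medians of -0.01 and 0.06. Slc2a1, the glucose transporter, rose by 1.68 and 1.51 and Hk2, a hexokinase, by 1.46 and 1.52. In contrast Adm, the vasoactive peptide adrenomedullin, fell by -2.30 ± 0.16 and -2.60 ± 0.16, and Bnip3, a mitophagy receptor, by -1.10 and -1.01. Adm was lower already at 1 h, by -0.82 ± 0.16 in knock-out and -0.77 ± 0.16 in wild-type cells (limma adjusted p 0.0272 and 0.0401), in the same hour in which Vegfa rose.

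**Figure D5:**
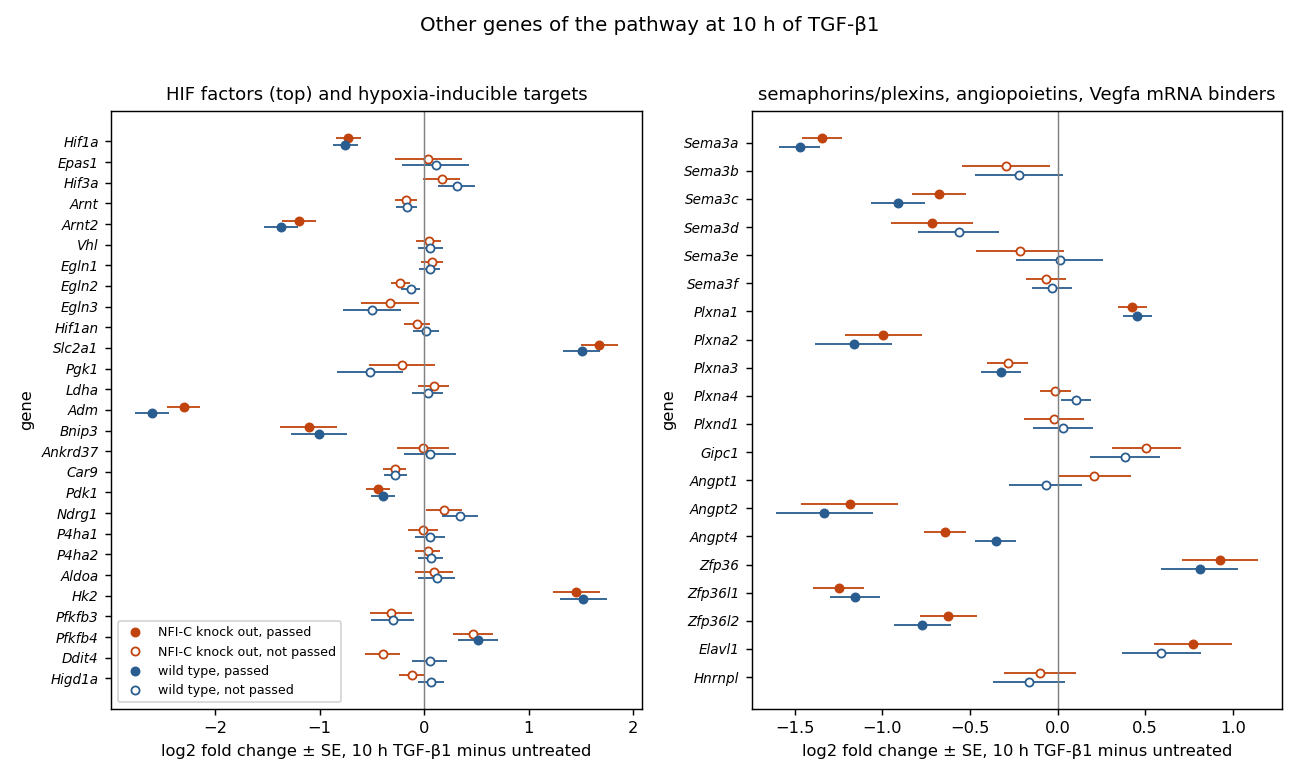
Log2 fold change ± SE (x axis) at 10 h of TGF-β1 against untreated cells for genes (y axis) of 5 lists around the VEGF system, knock-out cells in orange above wild-type cells in blue (n = 3 against 3); filled points passed at an adjusted p below 0.05. Slc2a1 and Hk2 lie to the right among hypoxia-inducible targets while Adm and Bnip3 lie to the left, and Sema3a, Plxna2, Angpt2 and Zfp36l1 lie to the left in the other panel.

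Proteins that bind Vegfa mRNA and set its stability were mixed: of 5, 2 rose and 2 fell in knock-out cells and 1 rose and 2 fell in wild-type cells. The decay factors Zfp36l1 and Zfp36l2 fell, by -1.25 and -0.62 in knock-out and by -1.15 and -0.77 in wild-type cells, while Zfp36 of the same family rose by 0.93 and 0.81. Elavl1, a stabilising protein, rose by 0.77 in knock-out cells and changed by 0.59 in wild-type cells (limma adjusted p 0.0139 and 0.0532).

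The counts in this paragraph stand beside 13.9% of all genes higher and 20.7% lower in knock-out cells, and 14.9% and 18.8% in wild-type cells. Of 19 tested genes of signalling below the VEGF receptors, 7 rose and 1 fell in knock-out cells and 5 rose and 1 fell in wild-type cells. Sphk1, the kinase that makes sphingosine-1-phosphate, changed most, by 2.61 ± 0.16 and 2.78 ± 0.16, and at 1 h it had changed by 0.58 in knock-out cells (adjusted p 0.270) and risen by 0.80 in wild-type cells (0.0275, both limma). Map2k1, Pxn and Hspb1 rose by 0.59, 0.40 and 0.43 in knock-out and by 0.52, 0.53 and 0.60 in wild-type cells. These genes serve many other receptors. Of the angiopoietins, vessel-remodelling ligands, Angpt2 fell by -1.19 and -1.33 and Angpt4 by -0.64 and -0.35, which is 2 of 3 tested in each genotype. Of 6 secreted inhibitors of vessel growth, 2 rose and 1 fell in knock-out cells and 1 rose and 1 fell in wild-type cells: Timp3, which also blocks Kdr, rose by 2.13 and 1.85, Adamts1, a protease that binds VEGF-A, fell by -2.31 and -2.64, and Thbs1 rose by 0.49 in knock-out cells and changed by 0.38 in wild-type cells.

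The genes whose pattern over the 18 arrays lay closest to that of a member were sought for the 4 members whose group means spanned at least 1 on the log2 scale. For Vegfa they were Sphk1 (Pearson r 0.985), the secreted factor Fgf21 (0.984) and Gfpt2 (0.983), the entry enzyme of hexosamine synthesis. Fgf21 rose by 3.78 in knock-out and 4.05 in wild-type cells at 10 h and by 0.75 and 1.00 at 1 h (limma adjusted p 0.0259 and 0.00201 at 1 h). Because Fgf21 was picked for its likeness to Vegfa over the same arrays, its like early rise is not independent of that choice. For Flt1 they were Trmt61b (0.976), Ebna1bp2 (0.976) and Cep83 (0.974), whose 1 h changes lay between -0.04 and 0.06. For Vegfc the nearest were Ddx21 (0.901), Tcim (0.901) and Col5a3 (0.894), and for Nrp2 they were Lrp6 (0.958), Mmut (0.957) and Rad50 (0.952). The 18 arrays fall into 6 groups of the same 6 embryos, so such values describe the shared course over the groups.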

How the data were processed

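RNA of the 18 cultures was labelled with biotin and hybridised to 1-colour Affymetrix arrays. The deposited values are log2 expression per probe set, made by the authors with RMA per the submitters' processing notes; no version is given in these sources. RMA corrects background, normalizes arrays to each other and summarises the probes of a set. That the scale is log2 was read from the range of the values. The values were used as deposited, and spots, scan dates and detection calls were not used here.

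Probe sets were named from the annotation of the array: 34958 of 45101 had a single symbol, 932 several and 9211 none, and 34754 of the first matched a RefSeq gene (GRCm38.p6) by Entrez number. The brightest single-symbol probe set stood for its gene. Genes above the 40th percentile on at least 3 arrays were tested, 13679 of 18194. A mean for each of the 6 groups was fitted with limma 3.58.1 in R 4.3.3, with 12 residual degrees of freedom, empirical Bayes variances, two-sided p values and Benjamini-Hochberg adjustment over all tested genes at 0.05. Single probe sets were read from the same fit over all 45101, and genotypes also from the mean of 3 arrays per embryo. The number of arrays limits precision: the 95% interval of a difference reached 0.27 to either side for the median gene. The fit was tested on simulated data with known changes.

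Within a genotype arrays with the same number come from 1 embryo per the labels, which pairs treated with untreated cells. Deviations from group means correlated over genes at 0.592 to 0.763 between untreated and 1 h arrays of an embryo, at 0.282 to 0.388 between untreated and 10 h arrays in knock-out cells and at -0.20 to 0.487 in wild-type cells. Knock-out and wild-type embryos of the same number are different embryos. Named outside the 8 genes were those with the smallest adjusted p in a list, 4 at most at 10 h and 2 at 1 h, and the 3 genes closest in pattern. The members and lists were chosen with earlier results of these data known. Leaving out embryos, filters, normalizations, probe set rules, variance models and replicate blocks were tried as alternatives.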

Additional observations from a re-analysis of the deposited data

How the results depend on the processing

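Over 480 recomputed log2 changes of the 8 genes at 1 h and 10 h against untreated cells, 446 kept their side of the threshold without reversing. Another 28 lost a call, 5 gained one and 1 reversed. A change of sign counted as a reversal only with a call in either fit or a move of more than 1 SE. The counts of members and probe sets given below are not part of this tally. The reversal was Nrp1 at 1 h in wild-type cells, -0.35 (adjusted p 0.514) as the mean of its probe sets against 0.07, neither past the threshold. The 10 h calls of Vegfa, Vegfb and Flt1 in both genotypes, and of Nrp1 in knock-out cells, held under all 15 alternatives. Leaving out 1 embryo at a time gave 4 to 7 members at 10 h in knock-out and 4 to 7 in wild-type cells, 0 to 1 at 1 h in each, and between 1 h and 10 h 4 to 6 in knock-out and 2 to 6 in wild-type cells. For probe sets it gave 11 to 17 in knock-out and 10 to 16 in wild-type cells at 10 h, and 0 to 1 and 0 to 2 at 1 h. At 1 h the member count was 0 in both genotypes with the mean of a gene's probe sets or with only the compared groups fitted, and the probe set count was 0 with the latter. With embryo as a replicate block 6 members passed at 10 h in knock-out and 8 in wild-type cells, the added one being Kdr, 1 at 1 h in each, and 7 and 6 between 1 h and 10 h. With the number as a replicate block 0 passed between genotypes. The cause of these moves was not tested, beyond the fewer arrays that leaving out an embryo leaves. Signal over background was not measured, as no detection calls were used.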
